A study of Homo sapiens with 42 samples.

Results

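The 10 genes described here carry out heme breakdown and iron handling: HMOX1, BLVRA and BLVRB, FTH1 and FTL, NCOA4, TFRC and SLC11A2, and ACO1 and IREB2. They were chosen by name, as the rows of these symbols, from 20515 named genes, and all 10 were among the 14331 genes tested. The choice was made with earlier results of these data known. RNA was profiled in 42 libraries of HAP1, a near-haploid human line derived from a chronic myeloid leukemia. The cells were wild type (wt) or were labelled as deficient for DNA glycosylases: NEIL1 in neil1, NEIL2 in neil2, NEIL3 in neil3, and the 3 together in neil123. Each of the 5 genotypes was kept in media alone or given 200 µM BSO for 48 h, which began after 4 h. BSO (buthionine sulfoximine) blocks the first enzyme of glutathione synthesis. Each treatment had 7 wt, 3 neil1, 3 neil2, 4 neil3 and 4 neil123 libraries. The labels do not state lines, so lines were read from the names. This gave wt lines 1.1, 1.3 and p1, neil1 lines 12 and 13 and neil2 lines 11 and 12. For neil3 and for neil123 it gave lines 1 and 2. In the neil1 and neil2 titles these numbers follow biol_rep, for biological replicate. There, names that differ only after the point were taken as 1 line, but wt 1.1 and 1.3 were kept apart. Statements about lines, and fits with 1 mean per line, rest on this reading. Unless stated, the tests took libraries of the same line as separate replicates.

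Heme oxygenase opens the heme ring and yields biliverdin, carbon monoxide and free iron. Biliverdin reductases turn biliverdin into bilirubin, and ferritin, a shell of heavy (FTH1) and light (FTL) chains, stores the iron. HMOX1 and both ferritin genes are textbook targets of the oxidant-responsive factor NRF2. The iron regulatory proteins IRP1 (gene ACO1) and IRP2 (gene IREB2) bind a short RNA hairpin, the iron-responsive element, when iron is scarce. Bound near the start of a message they hold back its translation, and bound after the coding part they protect the message from decay.

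The hairpins are shown because their place in the message sets which of these controls a gene can be under. They were found by searching GENCODE transcripts on GRCh38 for an unpaired C, 5 bases, the loop CAGTGN (in capitals) and 5 bases that pair with the first 5, with G-T pairs allowed. FTH1 and FTL each held 1 such site in the 5′ UTR, and TFRC held 4 in the 3′ UTR. Each is given 5′ to 3′ on the strand of the gene.
FTH1, chr11:61967574-61967602, minus strand: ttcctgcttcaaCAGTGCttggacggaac
FTL, chr19:48965335-48965363, plus strand: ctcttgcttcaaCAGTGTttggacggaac
TFRC, chr3:196050979-196051007, minus strand: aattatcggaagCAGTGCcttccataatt
TFRC, chr3:196050575-196050603, minus strand: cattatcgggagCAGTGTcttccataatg
TFRC, chr3:196050510-196050538, minus strand: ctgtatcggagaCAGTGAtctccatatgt
TFRC, chr3:196050463-196050491, minus strand: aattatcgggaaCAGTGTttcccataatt

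Of 19652 coding genes searched in the same way, 281 (1.43%) held a match, so a match is a description of the sequence and not a shown binding site. The other 7 genes held none, which says only that these letters were not found there. The iron exporter gene SLC40A1 held 1 site in its 5′ UTR. The same search also matched NFE2L1 in its coding part and TF in its 3′ UTR. In the RefSeq promoter windows (GRCh38.p14, 250 bases before to 50 after a start), the core of the antioxidant response element, TGACNNNGC on either strand, was in 1 of 13 windows of 8 of the genes, at a start of NCOA4. Over all windows of this length, 4687 of 35116 held it. HMOX1 and FTH1 were not among the genes with a window.

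The libraries summed to 27.6 M to 31.6 M normalized read counts each. Their names fall into a set ending in A or B (24 lettered libraries: 4 wt per treatment, neil3 and neil123) and a set without (18 unlettered libraries: 3 wt per treatment, neil1 and neil2). In the sample titles the letter marks a biological replicate (biol_repA or biol_repB). The labels do not say what else sets the lettered libraries apart. Over all genes 52.9% differed between the label sets of wt, and each fit held a term for the label set. NEIL2 was lower in the neil2 libraries (240 to 328) and neil123 libraries (170 to 242) than in wt of their sets (487 to 613 and 338 to 425). NEIL1 in the neil1 libraries (284 to 541) overlapped wt (293 to 403), and NEIL3 in neil3 (410 to 714) overlapped wt (590 to 671). In neil123, NEIL1 (774 to 1127) overlapped lettered wt (774 to 975), and NEIL3 (381 to 542) lay below lettered wt (590 to 671). Where an edit leaves the message intact, a gene-level count does not check the label, and the sources used here do not give the edited positions. BCR (705 to 1058) and ABL1 (557 to 1316), whose fusion marks the parent leukemia, were read in every library. The pan-leukocyte marker PTPRC was at 0 in 23 libraries and at most 2.92, and CD34 ranged from 1.02 to 715.6. All knockout titles and the lettered wt titles carry biol_rep, and the unlettered wt titles do not. How the replicates were grown is not said. The p-values therefore speak of the spread between these libraries, which may in part be technical.

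Compared per kilobase of exon, FTL was the most abundant of the 10 genes in media, with a mean of 18059 counts per kb in the unlettered and 17393 in the lettered libraries. FTH1 (5257 and 7581) and TFRC (2958 and 2045) followed. NCOA4 (1309 and 1062), BLVRA (1267 and 976), BLVRB (951 and 931) and IREB2 (948 and 801) lay in the middle. ACO1 (450 and 397), HMOX1 (267 and 300) and SLC11A2 (244 and 216) were lowest. The ranges of FTL and FTH1 over the libraries did not overlap in either set, and those of HMOX1 and SLC11A2 overlapped in the unlettered set.

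The comparison of BSO with media asked how these genes respond when glutathione synthesis is blocked. HMOX1, FTH1, FTL and BLVRB rose in wt, and IREB2 fell. HMOX1 and FTH1 rose in all 5 genotypes. FTL passed the test in wt, neil3 and neil123, and BLVRB in all genotypes but neil2. BLVRA, NCOA4, SLC11A2, ACO1 and TFRC passed in no genotype. These calls are from the main fit, which held no term for pairs of BSO and media libraries. With a term for each pair, FTL passed also in neil1 and neil2. IREB2 then fell also in neil1 and neil3, and TFRC in wt. Changes are log2 differences of (normalized count + 1) ± standard error, with limma's p adjusted over 14331 genes and a threshold of 0.05.

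In wt, 4 of the 10 genes rose against 7.24% of all genes, and 1 fell against 6.28%. In neil1, 3 rose against 0.823% of all genes, and in neil2, 2 rose against 0.14%. In neil3 and in neil123, 4 rose, against 3.36% and 1.33% of all genes. None fell in the knockouts in the main fit. The median change of the 10 genes in wt was 0.06, against 0.00 over all genes.

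HMOX1, the inducible heme oxygenase (chromosome 22, 35380361 to 35394214), changed most. In wt its count in media had a lowest value of 457, a median of 571 and a highest of 664, and with BSO of 2126, 2565 and 4036. In neil1 it was 536, 502 and 535 in media and 2033, 2620 and 2328 with BSO (neil1_12, neil1_13.1 and neil1_13.2). In neil2 it was 351, 400 and 504 in media and 1177, 1005 and 1595 with BSO (neil2_11.1, neil2_11.2 and neil2_12). No media library reached a BSO library of its genotype, and the 3 neil2 BSO libraries were the lowest of all 21 with BSO.

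In neil3 the HMOX1 count was 702, 538, 563 and 489 in media and 3500, 2336, 3381 and 2550 with BSO (1A, 1B, 2A and 2B). In neil123 it was 531, 481, 426 and 422 in media and 2512, 2464, 2747 and 1976 with BSO. The groups did not overlap, and the rise was seen in 21 of 21 pairs, from 2.51-fold to 6.43-fold.

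The fitted HMOX1 change was 2.26 ± 0.12 in wt (4.78-fold, adjusted p = 7.8e-16). It was 2.14 ± 0.18 in neil1 (4.41-fold, adjusted p = 1.7e-09) and 1.58 ± 0.18 in neil2 (2.98-fold, adjusted p = 5.3e-06). In neil3 it was 2.35 ± 0.16 (5.10-fold, adjusted p = 1.5e-12) and in neil123 2.38 ± 0.16 (5.19-fold, adjusted p = 1.1e-12). Among all 14331 genes this rise ranked from 5 to 9 in the 5 genotypes. With only the neil2 libraries in the fit, the neil2 call was lost (adjusted p = 0.11). Within wt the change was 2.19 ± 0.10 in the unlettered and 2.31 ± 0.17 in the lettered libraries alone.

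**Figure D1:**
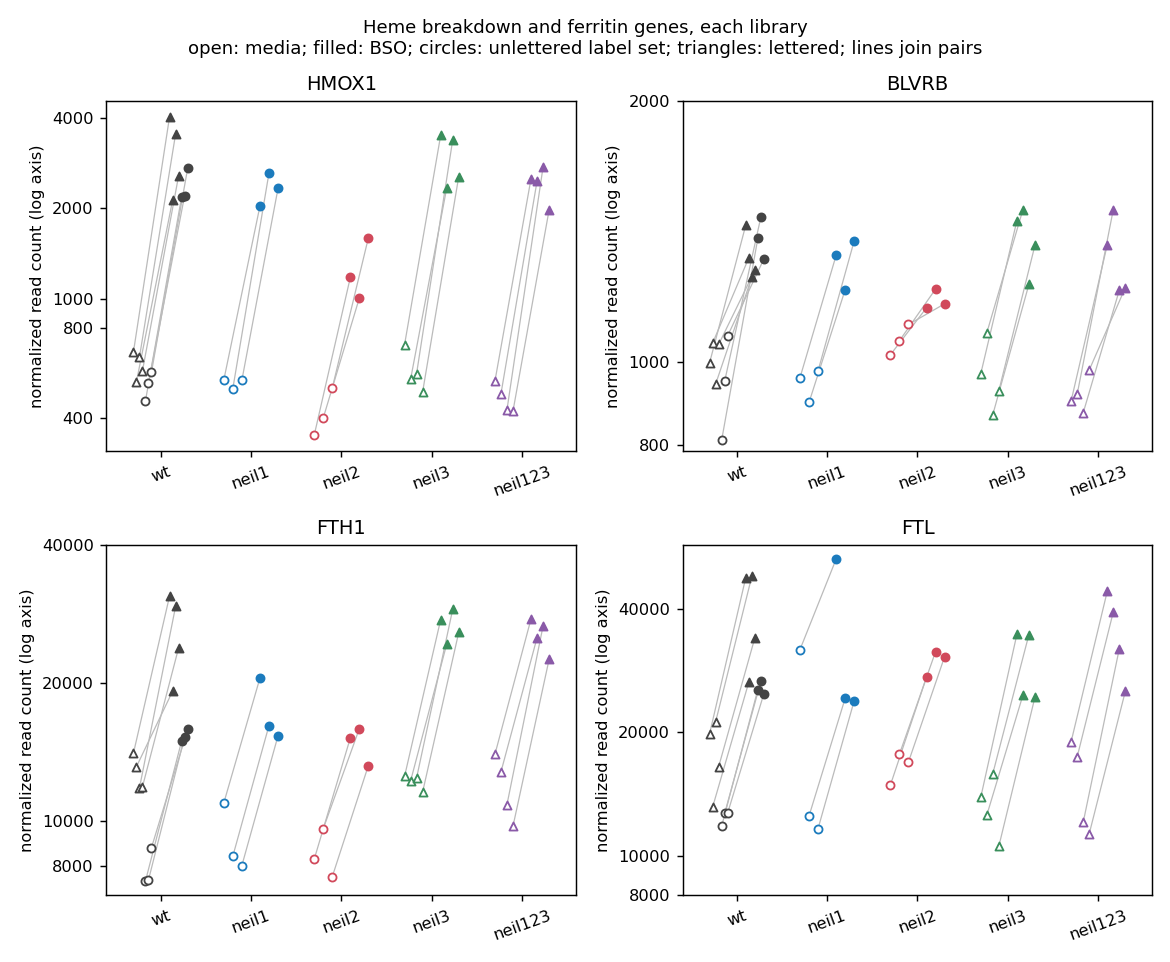
Normalized read count (log axis) of HMOX1, BLVRB, FTH1 and FTL in each library, by genotype; open symbols are media, filled symbols BSO, circles the unlettered and triangles the lettered label set, and lines join pairs of 1 replicate name. All 21 lines rise in each of the 4 panels, the neil2 lines for HMOX1 end lowest (1005 to 1595), and neil1_12 stands highest for FTL.

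FTH1, the ferritin heavy chain that oxidizes iron (chromosome 11, 61959718 to 61967660), about doubled. In wt it was 7420 at the lowest, 11822 at the median and 14064 at the highest in media, and 14952, 19192 and 30910 with BSO. In neil1 it was 10964, 8400 and 8014 in media and 20496, 16157 and 15344 with BSO. In neil2 it was 8266, 9636 and 7576 in media and 15181, 15910 and 13227 with BSO. Within each of these genotypes every BSO library lay above every media library.

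In neil3 FTH1 was 12522, 12233, 12428 and 11579 in media and 27468, 24302, 28933 and 25767 with BSO. In neil123 it was 13980, 12803, 10870 and 9757 in media and 27580, 25097, 26625 and 22518 with BSO. These groups did not overlap either, and 21 of 21 pairs rose, from 1.46-fold in wt_1.1B to 2.48-fold. The fitted change was 0.99 ± 0.09 in wt (adjusted p = 8.4e-10) and 0.93 ± 0.14 in neil1 (adjusted p = 0.00017). It was 0.80 ± 0.14 in neil2 (adjusted p = 0.0028), 1.12 ± 0.12 in neil3 (adjusted p = 8.3e-08) and 1.11 ± 0.12 in neil123 (adjusted p = 1.1e-07). With only the libraries of the genotype in the fit, the calls in neil1 (adjusted p = 0.20) and neil2 (adjusted p = 0.14) were lost, and without the label-set term that in neil2 (adjusted p = 0.32).

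FTH1 shares its sequence with pseudogenes, and its exons overlap BEST1 on the opposite strand, so its count may hold reads of others. FTH1P2 had 0.626% to 1.39% of the FTH1 count and FTH1P10 0.126% to 0.466%. Both rose in 21 of 21 pairs, by 1.01 (adjusted p = 5.9e-08) and 0.95 (adjusted p = 0.00041) in wt by limma. BEST1, a chloride channel gene of the retinal pigment epithelium, rose in wt from 8.75 to 18.2 in media to 24.6 to 79.5 with BSO (change 1.92 ± 0.19, adjusted p = 8.9e-09 by limma). The sources used here do not give the strand setting of the counting, so reads of the pair cannot be told apart.

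FTL, the light chain that supports iron core formation (chromosome 19, 48965301 to 48966878), moved by a like amount but with more spread between libraries. In wt it was 11814, 13140 and 21238 in media (lowest, median, highest) and 24857, 26668 and 48110 with BSO. In neil1 it was 31874 in line 12 and 12501 and 11643 in line 13 in media, and 53050, 24241 and 23917 with BSO. Line 12 in media was above both line 13 libraries with BSO, so the neil1 groups overlapped.

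In neil2 FTL was 14862, 17689 and 16924 in media and 27292, 31484 and 30614 with BSO. In neil3 it was 13873, 12541, 15856 and 10531 in media and 34723, 24664, 34685 and 24394 with BSO. In neil123 it was 18972, 17407, 12044 and 11294 in media and 44233, 39376, 32015 and 25203 with BSO. In these genotypes and in wt the groups did not overlap, and line 1 of neil123 was above line 2 in both treatments.

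The fitted FTL change was 1.09 ± 0.19 in wt (adjusted p = 8.8e-05), 1.16 ± 0.25 in neil3 (adjusted p = 0.0024) and 1.24 ± 0.25 in neil123 (adjusted p = 0.0031). In neil1 (0.91 ± 0.29, adjusted p = 0.13) and neil2 (0.85 ± 0.29, adjusted p = 0.30) it did not pass. Pairs rose in 21 of 21 cases, from 1.66-fold to 2.66-fold. With the replicate block, a term for each pair of libraries that share a name, neil1 passed (0.91 ± 0.06, adjusted p = 4.2e-11) and so did neil2 (0.85 ± 0.06, adjusted p = 2.5e-10). Without neil1_12 in media, the neil1 change was 1.38 (adjusted p = 0.0051). With 1 mean per line, the calls in neil3 (adjusted p = 0.091) and neil123 (adjusted p = 0.21) were lost.

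The FTL count was also divided by the FTH1 count in each library. The ratio was 1.45 to 1.70 in the unlettered and 0.999 to 1.80 in the lettered wt media libraries. In neil2 media libraries it was 1.80 to 2.23, and in neil1_12 it was 2.91 in media and 2.59 with BSO. In neil3 it was 0.91 to 1.28 in media and 0.95 to 1.26 with BSO. In neil123 media it was 1.36 in both libraries of line 1, and 1.11 and 1.16 in those of line 2. These ratios are not scaled to gene length and were not tested.

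**Figure D2:**
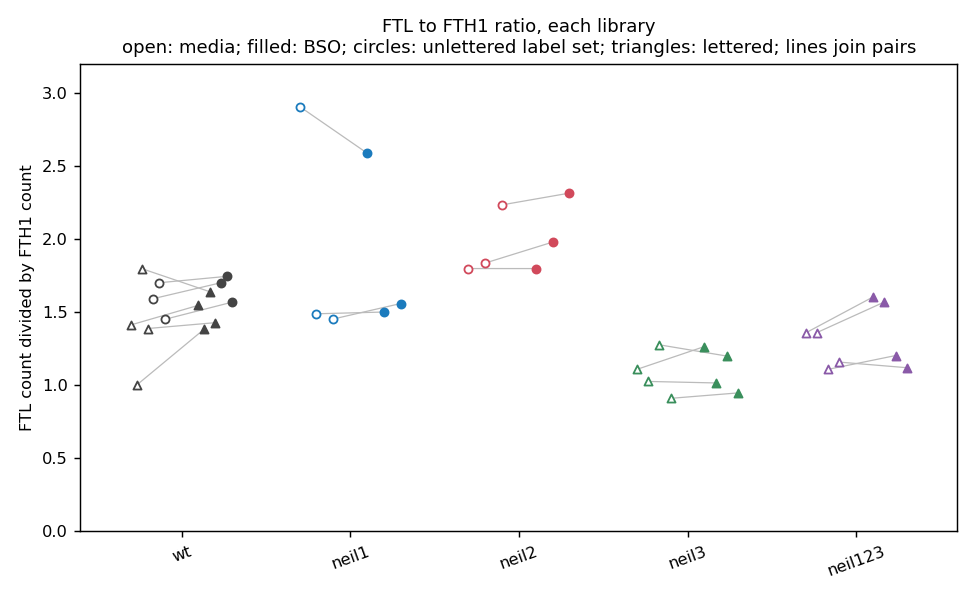
FTL count divided by FTH1 count in each library, by genotype; symbols and lines are as in the plot of heme and ferritin levels. neil1_12 stands apart at 2.91 and 2.59, the neil2 libraries sit at 1.80 to 2.31 and the neil3 libraries at 0.91 to 1.28.

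BLVRB and BLVRA reduce biliverdin, and BLVRB is also known as flavin reductase. BLVRB (chromosome 19, 40447765 to 40465840) was 812, 997 and 1071 in wt media (lowest, median, highest) and 1251, 1317 and 1468 with BSO. In neil2 it was 1018, 1057 and 1103 in media and 1154, 1212 and 1166 with BSO. The neil2 groups did not overlap, but they lay closer together than those of the other genotypes.

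BLVRB was 958, 897 and 976 in neil1 media and 1327, 1211 and 1379 with BSO. In neil3 it was 968, 1079, 868 and 925 in media and 1454, 1498, 1228 and 1362 with BSO. In neil123 it was 900, 916, 872 and 977 in media and 1364, 1498, 1209 and 1217 with BSO. Every genotype had its BSO libraries above its media libraries.

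The BLVRB change was 0.46 ± 0.06 in wt (adjusted p = 4.9e-07), 0.47 ± 0.09 in neil1 (adjusted p = 0.0037) and 0.15 ± 0.09 in neil2 (adjusted p = 0.72). It was 0.53 ± 0.08 in neil3 (adjusted p = 1.7e-05) and 0.52 ± 0.08 in neil123 (adjusted p = 5.0e-05). All 21 pairs rose, from 1.06-fold to 1.71-fold. With only the neil1 libraries in the fit the neil1 call was lost (adjusted p = 0.20). With 1 mean per line, the calls in neil1 (adjusted p = 0.061) and neil123 (adjusted p = 0.053) were lost.

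BLVRA (chromosome 7, 43758680 to 43807342) did not move with BLVRB. Its pairs were higher with BSO in 8 of 21 cases, and its fitted changes ran from -0.08 in neil1 to 0.04 in neil123. Its levels ran from 907 to 1572 in media and from 1031 to 1550 with BSO, and these ranges overlapped.

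**Figure D3:**
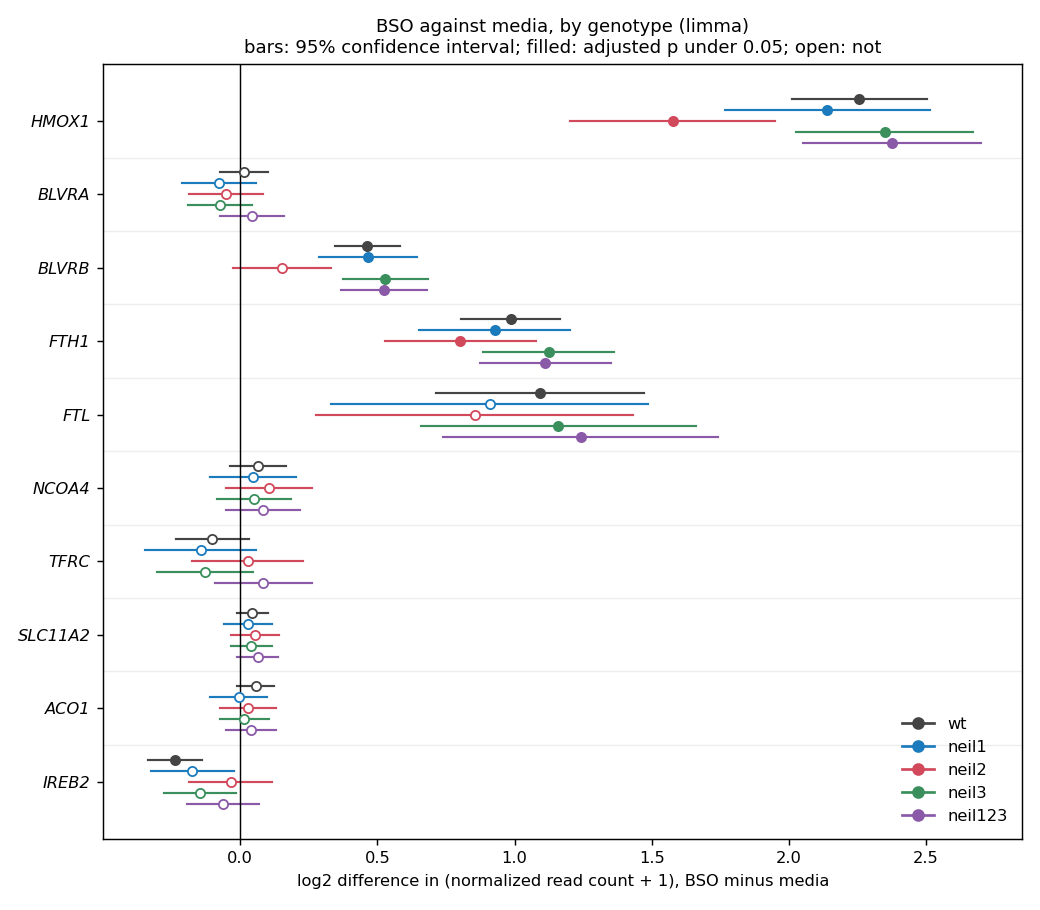
log2 difference of (normalized read count + 1), BSO minus media, for the 10 genes in each genotype; points are limma estimates, bars 95% confidence intervals, and filled points passed the threshold. HMOX1 lies at 1.58 to 2.38, FTH1 and FTL at 0.80 to 1.24, BLVRB at 0.15 to 0.53, and the other genes within 0.24 of 0.

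NCOA4 is the cargo receptor that takes ferritin to the lysosome (chromosome 10, 46005088 to 46030714). Its count was higher with BSO in 20 of 21 pairs, but by 1.12-fold at most. It was 4003 to 5369 in wt media and 4189 to 5811 in wt with BSO, so the groups overlapped, as they did in every genotype but neil2 (5088 to 5344 in media, 5421 to 5970 with BSO). The fitted change was 0.06 ± 0.05 in wt (95% interval -0.04 to 0.17) and 0.11 ± 0.08 in neil2 (-0.05 to 0.26), and it passed in no genotype.

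TFRC, the transferrin receptor that brings iron into the cell (chromosome 3, 196027183 to 196082189), carries the 4 hairpins printed above. In wt it was 9397, 12769 and 15994 in media (lowest, median, highest) and 9781, 11071 and 15018 with BSO. In neil1 it was 18091, 16202 and 14736 in media and 14773, 15595 and 13880 with BSO. In neil2 it was 14853, 12451 and 18541 in media and 15437, 14165 and 16570 with BSO. These groups overlapped, though the 3 unlettered wt libraries did not (15312 to 15994 in media, 14418 to 15018 with BSO). In neil2, neil2_12 went down while neil2_11.1 and neil2_11.2 went up.

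In neil3 TFRC was 11789, 9886, 11833 and 11357 in media and 11211, 9636, 10726 and 9468 with BSO. In neil123 it was 10313, 9713, 10131 and 9961 in media and 11425, 10348, 10150 and 10634 with BSO. All 4 pairs of neil3 were lower with BSO and all 4 of neil123 higher.

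The fitted TFRC change was -0.10 ± 0.07 in wt (adjusted p = 0.34), -0.14 ± 0.10 in neil1 and 0.03 ± 0.10 in neil2. It was -0.13 ± 0.09 in neil3 and 0.08 ± 0.09 in neil123. With the replicate block the wt change passed narrowly (-0.10 ± 0.04, adjusted p = 0.049, lower in 6 of 7 pairs). SLC11A2, the iron transporter DMT1 (chromosome 12, 50979401 to 51028566), was 1486 to 1913 in media and 1484 to 2007 with BSO. Its changes ran from 0.03 in neil1 to 0.06 in neil123 and passed in no genotype.

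IREB2, which encodes IRP2 (chromosome 15, 78437431 to 78501456), was the 1 gene of the 10 that fell in the main fit. In wt it was 7210, 8267 and 10290 in media (lowest, median, highest) and 6383, 7078 and 7862 with BSO. The wt groups overlapped over both label sets but not within either. In neil1 it was 8314, 9036 and 9007 in media and 6705, 8674 and 8078 with BSO. In neil2 it was 8588, 8023 and 9152 in media and 8686, 7998 and 8447 with BSO. The neil1 and neil2 groups overlapped.

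In neil3 IREB2 was 8107, 6802, 7826 and 7530 in media and 7213, 6366, 7346 and 6438 with BSO. In neil123 it was 7926, 7497, 7545 and 7486 in media and 7513, 7034, 7297 and 7327 with BSO. The groups overlapped in both, though all 8 pairs were lower with BSO.

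The IREB2 change was -0.24 ± 0.05 in wt (adjusted p = 0.00084, lower in 7 of 7 pairs). It was -0.30 ± 0.07 in the unlettered wt libraries alone (adjusted p = 0.018) and -0.19 ± 0.05 in the lettered ones alone, which did not pass (adjusted p = 0.057). It did not pass in neil1 (-0.18 ± 0.07), neil2 (-0.03 ± 0.07), neil3 (-0.15 ± 0.06) or neil123 (-0.06 ± 0.06). With the replicate block neil1 passed (-0.18 ± 0.05, adjusted p = 0.026) and so did neil3 (-0.15 ± 0.04, adjusted p = 0.015). ACO1, which encodes IRP1 (chromosome 9, 32384603 to 32454769), was 2724 to 3686 in media and 2878 to 3710 with BSO. Its changes lay between -0.01 in neil1 and 0.06 in wt and passed in no genotype.

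**Figure D4:**
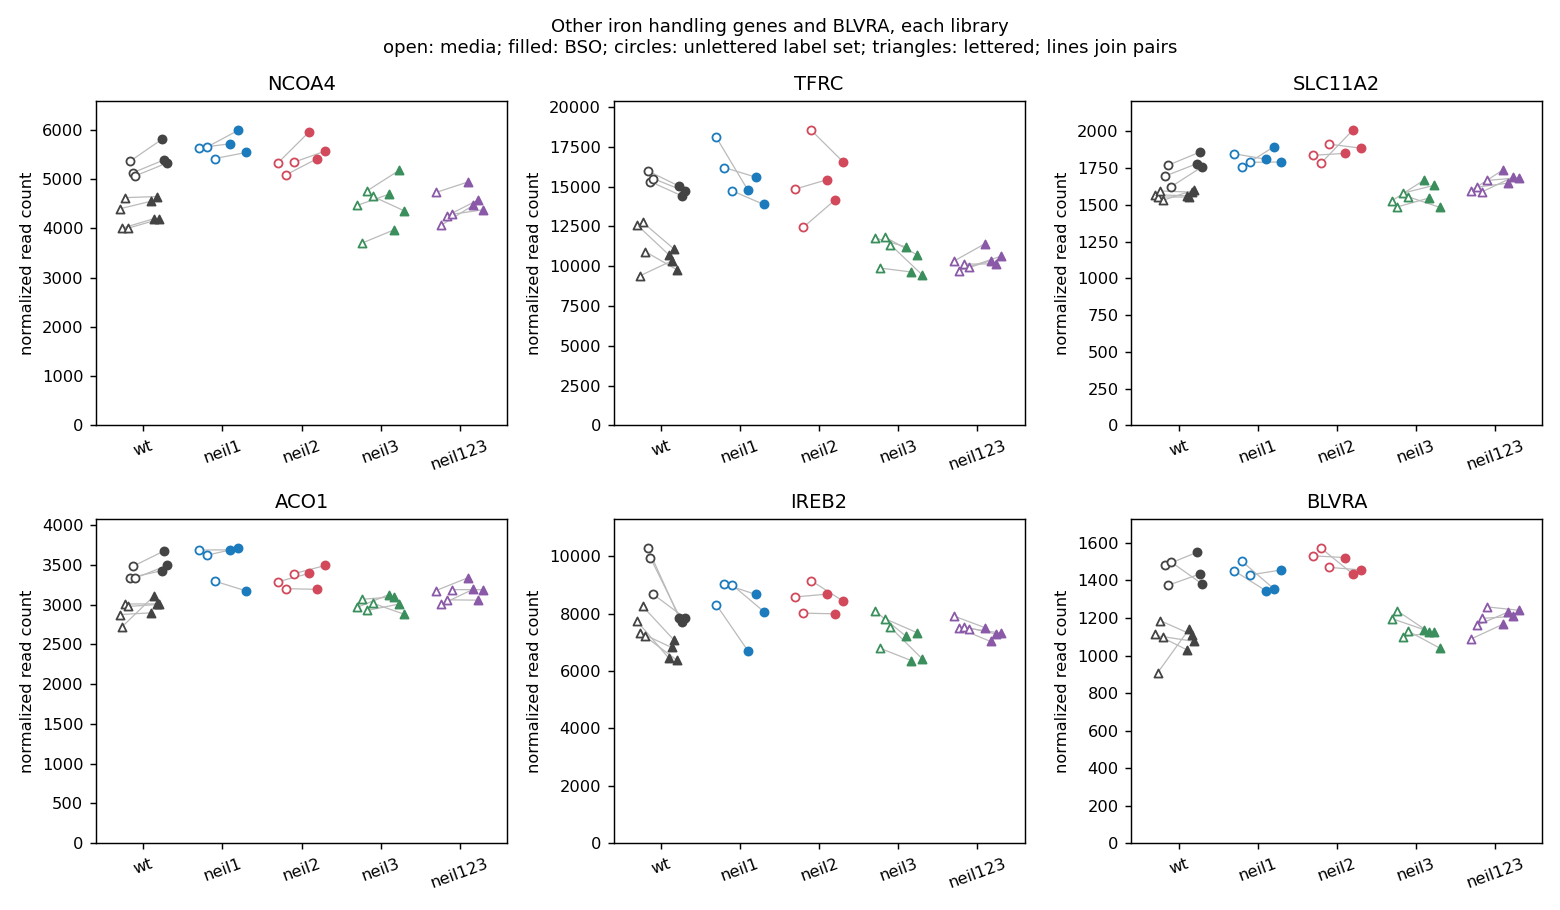
Normalized read count of NCOA4, TFRC, SLC11A2, ACO1, IREB2 and BLVRA in each library, on axes that start at 0, with symbols as in the plot of heme and ferritin levels. Media and BSO ranges overlap in most genotypes, lettered libraries of wt lie below unlettered ones of the same treatment, and the 7 wt lines of IREB2 all fall.

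With the replicate block, 6 of the 10 genes passed in wt, 5 in neil1, 3 in neil2, 5 in neil3 and 4 in neil123. The shares of all genes called by that fit were 31.6%, 7.64%, 5.76%, 20.4% and 8.86%.

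The test of whether the BSO change differed between a knockout and wt called none of the 10 genes in any knockout, nor any of the 14331 genes (0%). The 4 tests share the wt libraries. At an unadjusted p under 0.05 there were 0 of the 10 genes in neil1, 3 in neil2, 0 in neil3 and 1 in neil123, beside 0.942%, 4.62%, 2.64% and 3.46% of all genes. The largest difference among the 10 genes was that of HMOX1 in neil2, -0.68 ± 0.22 (95% interval -1.13 to -0.23, adjusted p = 0.9999). With the replicate block it passed (-0.68 ± 0.12, adjusted p = 0.025), in a fit that called 0.216% of all genes.

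For HMOX1 the difference was -0.12 in neil1 (interval -0.56 to 0.33), 0.09 in neil3 (-0.31 to 0.50) and 0.12 in neil123 (-0.29 to 0.52). BLVRB in neil2 differed by -0.31 ± 0.11 (interval -0.53 to -0.10, adjusted p = 0.9999). The FTH1 intervals in neil2 (-0.51 to 0.15) and the FTL intervals in neil2 (-0.93 to 0.45) held 0. IREB2 differed by 0.20 ± 0.09 in neil2 and 0.18 ± 0.08 in neil123, with an adjusted p of 0.999 or more in both.

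The comparison of knockouts with wt in media asked whether loss of a glycosylase shifted these genes before treatment. None of the 10 genes passed in any knockout. The shares of all genes called were 0.349% in neil1, 10.5% in neil2, 0.579% in neil3 and 7.67% in neil123. At an unadjusted p under 0.05 there were 0, 1, 1 and 4 of the 10 genes, beside 9.18%, 26.1%, 8.32% and 21.6% of all genes. The 4 comparisons share wt libraries. With 1 mean per line, the genes called over all fell from 1508 to 828 in neil2 and from 1099 to 278 in neil123.

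HMOX1 in neil123 media libraries (422 to 531) lay at or below the lettered wt libraries (529 to 664), with 1 library inside their range. The difference was -0.40 ± 0.15 (95% interval -0.70 to -0.09, adjusted p = 0.11). It passed with the final letter of the name as replicate block (-0.40 ± 0.12, adjusted p = 0.029), in a fit that called 9.62% of all genes. It also passed with only the compared groups in the fit (-0.37 ± 0.10, adjusted p = 0.036). HMOX1 differed from wt by 0.06 ± 0.17 in neil1, -0.28 ± 0.17 in neil2 and -0.10 ± 0.15 in neil3.

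The FTL intervals were the widest. The difference from wt was 0.45 ± 0.26 in neil1 (-0.09 to 0.99), 0.43 ± 0.26 in neil2 (-0.11 to 0.97), -0.43 ± 0.23 in neil3 (-0.90 to 0.04) and -0.27 ± 0.23 in neil123 (-0.75 to 0.20). The 3 neil2 media libraries (14862 to 17689) were all above the 3 unlettered wt libraries (11814 to 12717). FTL in neil2 passed with only the compared groups in the fit (0.41 ± 0.07, adjusted p = 0.039), which called 226 of all genes. SLC11A2 in neil2 (1783 to 1913 against 1621 to 1770 in wt) also lay above the unlettered wt libraries without overlap. So did NCOA4 in neil1 (5420 to 5651 against 5071 to 5369). All other neil1 and neil2 comparisons of the described genes with unlettered wt in media overlapped. With 3 libraries on each side such a separation can arise by chance. The share of all genes that separate in this way was not counted, so these separations single out none of the genes. Without the label-set term, BLVRA (0.32, adjusted p = 0.032) and SLC11A2 (0.19, adjusted p = 0.0094) passed in neil2, and TFRC in neil123 (-0.37, adjusted p = 0.042).

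**Figure D5:**
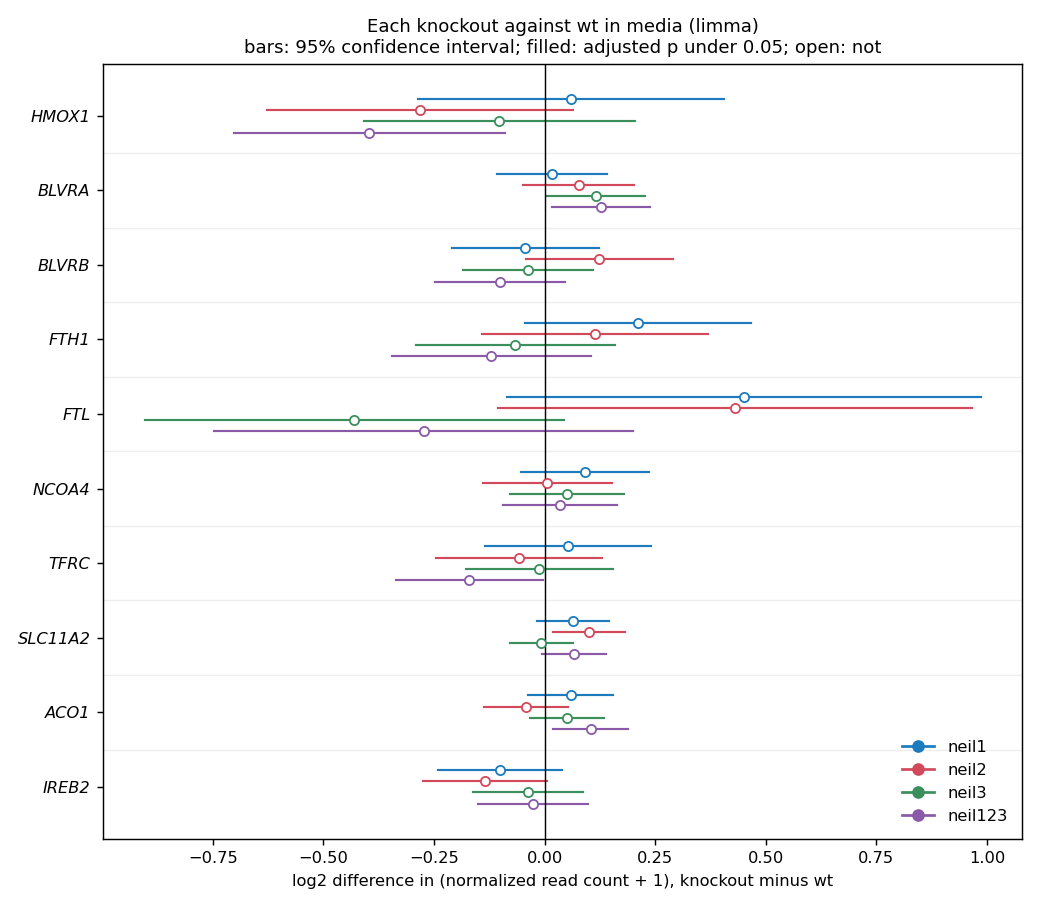
log2 difference of (normalized read count + 1) in media, knockout minus wt, for the 10 genes; points are limma estimates with the label-set term and bars 95% confidence intervals. No point passed the threshold, HMOX1 in neil123 lies at -0.40, and the bars of FTL are the longest.

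Between the label sets of wt, lettered minus unlettered, 8 of the 10 genes passed, beside 52.9% of all genes. FTH1 (0.71 ± 0.09, adjusted p = 2.9e-08) and FTL (0.53 ± 0.19, adjusted p = 0.018) were higher in the lettered libraries. BLVRA (-0.43), NCOA4 (-0.31), TFRC (-0.48), SLC11A2 (-0.15), ACO1 (-0.23) and IREB2 (-0.28) were lower. HMOX1 (0.28 ± 0.12, adjusted p = 0.055) and BLVRB (0.01 ± 0.06) did not pass. HMOX1 passed with columns scaled to equal totals (0.36, adjusted p = 0.012) and with 1 mean per line (adjusted p = 0.036). It also passed without any 1 of 5 wt libraries (1.1B, 1.3B or p1 with BSO, 1.1B or p1 in media), with adjusted p of 0.014 to 0.042. These alternatives were chosen after seeing the data. The part of depth in this was not tested: if the smallest value of a library is 1 read, the lettered libraries held 27.15 M to 29.02 M reads and the unlettered 30.19 M to 30.95 M.

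Across the 21 pairs, BSO changes of HMOX1 went with those of FTL (Pearson r = 0.79, Spearman rho = 0.76), FTH1 (0.74 and 0.75) and BLVRB (0.58 and 0.47). FTH1 went with FTL (0.71 and 0.78), and TFRC with IREB2 (0.65 and 0.76). These are descriptions over pairs that share lines, label sets and normalization. Among 12238 genes with a mean of 50 or more, the 5 changes most like that of HMOX1 were UAP1L1 (r = 0.83), RENBP (0.81), AARS1 (0.79), HS1BP3 (0.79) and FTL. Those most like FTL were TKT (0.82), RENBP (0.81), GSTP1 (0.79), HMOX1 and PTPRU (0.78). Among those most like TFRC were IDI1 (0.88), KCTD20 (0.86), CEP55 (0.83) and LMAN1 (0.83).

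The surrounding pathway was taken from 7 lists with 77 genes, of which 67 were tested. The lists too were chosen with earlier results of these data known. Calls of these list genes are from the fit without the replicate block alone. With BSO, 15 of these rose and 4 fell in wt, 3 rose in neil1, 1 in neil2 and 3 in neil123, and 7 rose and 2 fell in neil3. In wt that was 22.4% higher and 5.97% lower, beside 7.24% and 6.28% of all genes, which are also the shares to set beside the wt count of each list. In neil3 it was 10.4% higher and 2.99% lower, beside 3.36% and 2.92%. The shares higher in neil1 (4.48%), neil2 (1.49%) and neil123 (4.48%) stood beside 0.823%, 0.14% and 1.33% of all genes. The median change over the 67 in wt was 0.05, against 0.00 over all genes.

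Of 8 heme synthesis genes, FECH, which inserts iron into protoporphyrin to form heme, rose in every genotype. It went from 1613 ± 53 to 2281 ± 147 in wt (SD, n = 7; 0.50 ± 0.05, limma adjusted p = 8.4e-10) and from 1508 ± 90 to 1940 ± 100 in neil2 (n = 3; 0.36 ± 0.07, adjusted p = 0.0085). ALAS1, the rate-limiting enzyme, rose in wt (0.30 ± 0.06) and neil3 (0.37 ± 0.07). The other 6 passed in no genotype.

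Of 9 tested genes of heme breakdown and transport, 3 rose and 1 fell in wt. ABCB6 rose in wt (0.55 ± 0.14, limma adjusted p = 0.0065) and neil3 (0.92 ± 0.19, adjusted p = 0.0014). Between the label sets of wt ABCB6 was 1.51 ± 0.14 higher in the lettered libraries. SLC48A1, which moves heme out of endolysosomes, rose from 530 ± 60 to 828.8 ± 102 in wt (SD, n = 7; 0.64 ± 0.07), and also in neil1 (0.51 ± 0.11) and neil3 (0.70 ± 0.10). FLVCR1, a heme exporter, fell slightly in wt (-0.16 ± 0.05, limma adjusted p = 0.020). HMOX2, the constitutive heme oxygenase, was 2195 ± 152 in wt media and 2090 ± 204 with BSO, a difference that did not pass in any genotype (-0.07 ± 0.04 in wt).

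Of 12 regulators, 5 rose and 1 fell in wt, beside 7.24% and 6.28% of all genes. MAFG, a small MAF partner of NRF2, rose from 1337 ± 152 to 1866 ± 304 in wt (SD, n = 7; 0.47 ± 0.07) and passed also in neil1, neil3 and neil123. MAFK fell in wt (-0.26 ± 0.06). BACH1, the heme-sensing repressor of HMOX1, differed by 0.06 ± 0.06 in wt and passed in no genotype, nor did FBXL5, which marks IRP2 for degradation (0.09 ± 0.04 in wt).

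Of 8 tested iron import and reduction genes, SLC39A14 rose (0.17 ± 0.05) and the ferrireductase gene STEAP3 fell (-0.22 ± 0.05) in wt, and STEAP3 fell in neil3 (-0.24 ± 0.07). None of 4 tested export and oxidation genes passed in any genotype. The exporter gene SLC40A1, which carries a hairpin in its 5′ UTR, was 126 ± 23 in wt media and 129 ± 28 with BSO. Of 17 mitochondrial and 9 cytosolic iron-sulfur assembly genes, 2 in each rose in wt, among them ISCU (0.15 ± 0.03) and NUBP2 (0.19 ± 0.05), and CIAO2A fell (-0.13 ± 0.04).

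In media against wt, 4 of the 67 list genes were higher and 1 lower in neil2, 3 were higher and 3 lower in neil123, 1 was lower in neil1 and none passed in neil3. The shares called in either direction were 7.46% in neil2 and 8.96% in neil123, near the 10.5% and 7.67% of all genes, and 1.49% in neil1, beside 0.349%. HMOX2 was higher in neil2 (0.19 ± 0.06, limma adjusted p = 0.023), as were UROD (0.30 ± 0.06) and the porphyrin transporter gene ABCB6 (0.73 ± 0.20). In neil123, ABCG2 (-1.69 ± 0.39) and FLVCR1 (-0.22 ± 0.06) were lower. Differences in the BSO change between a knockout and wt called none of the 67.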

How the data were processed

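Values are normalized read counts per gene, a signal the authors deposited as 1 table of 30182 entries, 20515 of them with a symbol. The submitters' processing notes name Trim Galore, HISAT2, SAMtools, featureCounts and DESeq2 and the build GRCh38 (hg38), without versions.

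The members and gene lists were chosen with earlier results of these data known. limma 3.58.1 (R 4.3.3), with an intensity trend, was fitted to log2(value + 1) of the 14331 named genes whose mean reached 10. The fit held all 42 libraries, 10 group terms and a label-set term. Adjusted p is by Benjamini-Hochberg within each comparison, with a threshold of 0.05. On simulated data for BSO in wt (14331 genes), 90% of genes changed by 0.5 and 100% of those changed by 1 (log2) were called. The simulated libraries were independent, without line or pair effects, and all genes had the same dispersion. These shares therefore do not give the power in the real data, nor in the knockouts, which had fewer libraries.

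Replicate names pair BSO and media libraries. Deviations of the 21 pairs from their group means correlated with r of 0.375 to 0.849, and each of the 21 BSO libraries was closest to its own media partner within its genotype. From the residuals r was -0.0793 to 0.849, lowest in wt. A fit with the name as a replicate block is therefore given where it changed a call. Named list genes are up to 3 per list and comparison, those that changed most among the genes that passed, plus HMOX2, SLC40A1, FBXL5, BACH1 and FLVCR1 whatever their test. Alternatives were other pseudocounts (0.5 and 5), no filter or a mean of 50, no label-set term, only the compared groups, equal totals, 1 mean per line, the replicate block and each library left out. A gene among those most like TFRC is not reported here.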

Additional observations from a re-analysis of the deposited data

Results flagged for a closer look

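In groups of 4 to 10 values, 5 of 90 had a highest or lowest value that stood apart from the others by Dixon's criterion, and chance marks about 1 in 20 groups. BLVRA in the neil3 BSO library 2B (1039.96) was the lowest of 4, and IREB2 in the neil123 media library 1A (7926) the highest of 4. The pair wt_1.1B stood highest of 7 in its BSO change for BLVRA (0.33), TFRC (0.14) and ACO1 (0.19).

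The BSO change of HMOX1 was smaller in neil2 than in wt by a test of the difference with the replicate block (-0.68, limma adjusted p = 0.025), but not without the block. For TFRC, all pairs of neil1 and of neil3 were lower with BSO and all pairs of neil123 higher. The means differed by -0.23 between neil1 and neil123 and by -0.21 between neil3 and neil123, and these differences were not tested.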

How the results depend on the processing

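None of the log2 differences of the 10 genes reversed a call. Over settings other than left-out libraries, 1226 of 1250 kept their call, 14 came to pass and 10 no longer passed; with libraries left out, 1814 of 1820 kept it and 6 came to pass. Over all settings, 4 to 6 of the 10 genes passed with BSO in wt and 1 to 5 in neil1. In neil2 it was 0 to 3, in neil3 3 to 5 and in neil123 2 to 4. Changes in this number of more than 1.5-fold, or from 0, were as follows. In neil2 media, 0 became 2 without the label-set term and 1 with only the compared groups. Those settings called 2836 and 226 of the 14331 genes. In neil123 media, 0 became 1 under each of these and with the replicate block. With BSO, 3 in neil1 became 1 with only the compared groups and 5 with the replicate block. In neil2, 2 became 1 without the label-set term and 0 with only the compared groups (HMOX1 adjusted p = 0.11, FTH1 0.14, limma), and in neil123, 4 became 2 with 1 mean per line. The difference of the BSO change in neil2 from wt went from 0 to 1 with the replicate block. The replicate block changed no other call of the 10 genes than those given in the report. The cause was not tested.

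Counts over all genes moved more. With BSO they were 1938 in wt (759 to 4529), 164 in neil1 (2 to 1095), 22 in neil2 (0 to 826), 899 in neil3 (241 to 2922) and 230 in neil123 (28 to 1270). In media they were 50 in neil1 (10 to 200), 1508 in neil2 (226 to 2836), 83 in neil3 (13 to 119) and 1099 in neil123 (278 to 1379). For the neil2 difference 0 became 31 with the replicate block. With libraries left out, the lowest counts with BSO were 26 in neil1, 4 in neil2, 588 in neil3 and 103 in neil123, and in media 19 in neil1 and 306 in neil2. The planned test of whole counts with edgeR was not run, because whole reads were not accepted as recovered from the values of 12 columns. The lowest count of any of the 10 genes in a library was 351.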
